A study of Mus musculus with 8 samples.

Results

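A set of 10 genes of the contractile and actin-binding machinery, called members here, was followed across the 4 treatments of the series. They encode tropomyosins (Tpm1, Tpm2 and Tpm4), calponins (Cnn1, Cnn2 and Cnn3), transgelins (Tagln and Tagln2), a regulatory light chain of myosin II (Myl9) and the heavy chain of non-muscle myosin IIA (Myh9). The members were the rows of the table whose gene name is one of these, 10 of 50600 gene names, and each name was found. Values are TPM, a transcript abundance scaled for gene length and library size, given as whole numbers. Of the members, 7 had a mean of at least 5 TPM over the 8 libraries and were tested among 10222 genes that passed the same minimum.

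The cells were mouse embryonic stem cells of the OG2 transgenic line, on a mixed 129SVJ, C57B6 and CBA background, at passage P12. All of them carried the genotype c-Jun_TetOn_mESC, in which doxycycline switches on a c-Jun (JUN) transgene, and all were grown without feeders in 2i medium with LIF. As labelled, all 8 libraries received 2 µg/ml doxycycline for 6 hours, and 1 of 4 additions, namely the solvent DMSO, the compound PFI-3, the compound BI-9564, or the compounds together (P+B), with 2 libraries per group. The authors' article instead describes 8 hours of JUN induction with 6 hours of compound, so the length of induction is uncertain. PFI-3 binds the bromodomains of SMARCA2, SMARCA4 and PBRM1, and BI-9564 binds those of BRD9 and BRD7, all of them subunits of BAF-type chromatin remodelling complexes. The comparisons ask how these compounds, alone and together, alter expression in cells with induced JUN. No group without doxycycline was analysed here, so no value here is an effect of JUN itself. The labels give no compound dose and do not say whether the cell line is 1 clone or whether the replicates were separate cultures, so p-values measure the spread between these libraries, which may be technical.

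Tropomyosins are coiled-coil proteins that wind along actin filaments and decide which myosins and severing proteins reach the filament. Calponins and transgelins share a calponin homology domain and bind and bundle actin, and myosin II pulls on the filaments once its regulatory light chains are phosphorylated. Many of these genes are transcribed by serum response factor (SRF), which binds the CArG box and works with MRTF cofactors that are held by actin monomers. Cnn1, Tagln and Myl9 are best known from smooth muscle, whereas Tpm4, Cnn3, Tagln2 and Myh9 are used by many cell types that are not muscle.

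The sequence upstream of the members is shown because many of these genes are known as SRF targets and the cells carry an AP-1 factor. RefSeq promoter windows (GRCm38.p6, 250 bases before to 50 after the start) were matched for 9 of 10 members, all but Tagln. A CArG box (a pair of C, a run of A or T, and a pair of G, searched on both strands) lay in 2 of 9 windows, those of Cnn2 and Myl9, and in 1.63% of 32851 windows. Capitals mark that box in the first pair of sequences, and a run 1 letter away from it in the third, from Tpm1. The stretch of Tpm4 held none of the motifs searched.
Cnn2, chr10:79988484-79988583, + strand: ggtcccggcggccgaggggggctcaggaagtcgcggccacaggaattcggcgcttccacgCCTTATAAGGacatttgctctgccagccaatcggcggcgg
Myl9, chr2:156775258-156775357, + strand: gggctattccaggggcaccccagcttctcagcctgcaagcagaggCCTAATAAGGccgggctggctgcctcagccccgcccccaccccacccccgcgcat
Tpm1, chr9:67049407-67049463, - strand: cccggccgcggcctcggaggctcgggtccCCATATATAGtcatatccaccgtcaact
Tpm4, chr8:72135159-72135258, + strand: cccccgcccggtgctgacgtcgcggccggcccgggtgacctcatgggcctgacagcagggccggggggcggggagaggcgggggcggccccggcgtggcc

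The box of Cnn2 began 56 bases before the start and that of Myl9 161 bases before it. Runs with at most 1 letter different from the box lay in 3 of 9 member windows and in 21.1% of all windows, which is a frequent match. The AP-1 motif TGACTCA was in 0 of 9 member windows and in 5.2% of all, and TGACGTCA was in 0 of 9 and in 1.79%. The TEAD motif GGAATG was in 2 of 9, Tagln2 and Tpm1, and in 14.7% of all. Each motif was read on both strands, and a match describes letters, not binding.

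The libraries held the transcripts that mark embryonic stem cells. Pou5f1, the core pluripotency factor OCT4, was between 1104 and 1333 TPM in the 8 libraries. Summed over 8 stem cell markers the level was 3710 to 4884 TPM under DMSO, 4145 to 5139 under PFI-3, 3290 to 4327 under BI-9564 and 3471 to 4413 under P+B. These sums are mostly Dppa5a and Pou5f1, and single markers differed. Tdgf1, the NODAL co-receptor CRIPTO, was 163 and 156 TPM under DMSO and 82 and 84 TPM under P+B and fell (-0.93, limma adjusted p = 0.00916). That call was lost without DMSO replicate 1 (0.0861), DMSO replicate 2 (0.0721), P+B replicate 1 (0.078) or P+B replicate 2 (0.0834), and with only the 4 libraries compared (0.1). Esrrb, a naive pluripotency factor, was 86 and 58 TPM under DMSO, 128 and 110 under PFI-3, 76 and 54 under BI-9564, and 141 and 100 under P+B. Its P+B difference was 0.74 (limma adjusted p = 0.12, and 0.00486 with the replicate number as a block, where it was called). Its PFI-3 difference was also 0.74 (limma adjusted p = 0.594, and 0.147 with the block). Under PFI-3 the median difference of the 8 from DMSO was 0.36, with 0 of 8 below 0 (45.2% of all tested genes) and none called. Under BI-9564 it was -0.25, with 7 of 8 below 0 (45.9% of all). Under P+B it was -0.12, with 5 of 8 below 0 (41.7% of all). Tdgf1 and Esrrb were named after their values were seen, and the part of these shifts in the members' values was not tested. Markers of striated muscle summed to 0 to 3 TPM and those of fibroblasts to 0 to 5 TPM in any library. Of 8 smooth muscle markers, 4 (Myh11, Acta2, Lmod1 and Actg2) were listed at 0 in every library. The sum of the 8 was 140 to 169 TPM under DMSO, 90 to 99 under PFI-3, 106 to 114 under BI-9564 and 70 to 76 under P+B, most of it from Smtn, which encodes smoothelin, and its part in the members' values was not tested. Jun, where the cell's own gene and the transgene cannot be told apart, was 1970 and 2877 TPM under DMSO. It was 1570 and 2227 TPM under PFI-3, 2071 and 3011 under BI-9564, and 1569 and 2159 under P+B. Jun was higher in replicate 2 in 4 of 4 groups. Within each replicate number, PFI-3 and P+B lay below DMSO and BI-9564 above it. For P+B against DMSO the limma adjusted p was 0.437, in the fit without the block, which leaves the replicate shift in the spread. The part of Jun in the members' values was not tested.

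Across the members, P+B gave the lowest mean TPM of the 4 groups in 7 of 7 tested members. That pattern held in 21.7% of all tested genes. For Tagln2 the means were 131 TPM under P+B and 132 TPM under BI-9564. On the log2 scale of the fits the P+B mean of Tagln2 was not the lowest (0.003 against BI-9564). Both P+B libraries lay below both DMSO libraries in 6 of 7, all but Tagln2, against 18.9% of all tested genes. One member, Tpm4, fell under P+B by the call used here, a Benjamini-Hochberg adjusted p under 0.05 in limma over all tested genes with a change of at least 1.5-fold. The background for that call was 2.72% of tested genes lower and 1.28% higher. An unadjusted limma p under 0.05 was reached by 4 of 7 members and by 22.6% of genes. With PFI-3 or BI-9564 alone no member was called. In sum the 10 members made up 937 to 1004 TPM under DMSO, 840 to 916 under PFI-3, 811 to 908 under BI-9564 and 754 to 818 under P+B. Less RNA of a gene per cell and fewer cells that express it cannot be told apart in these bulk libraries.

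**Figure D1:**
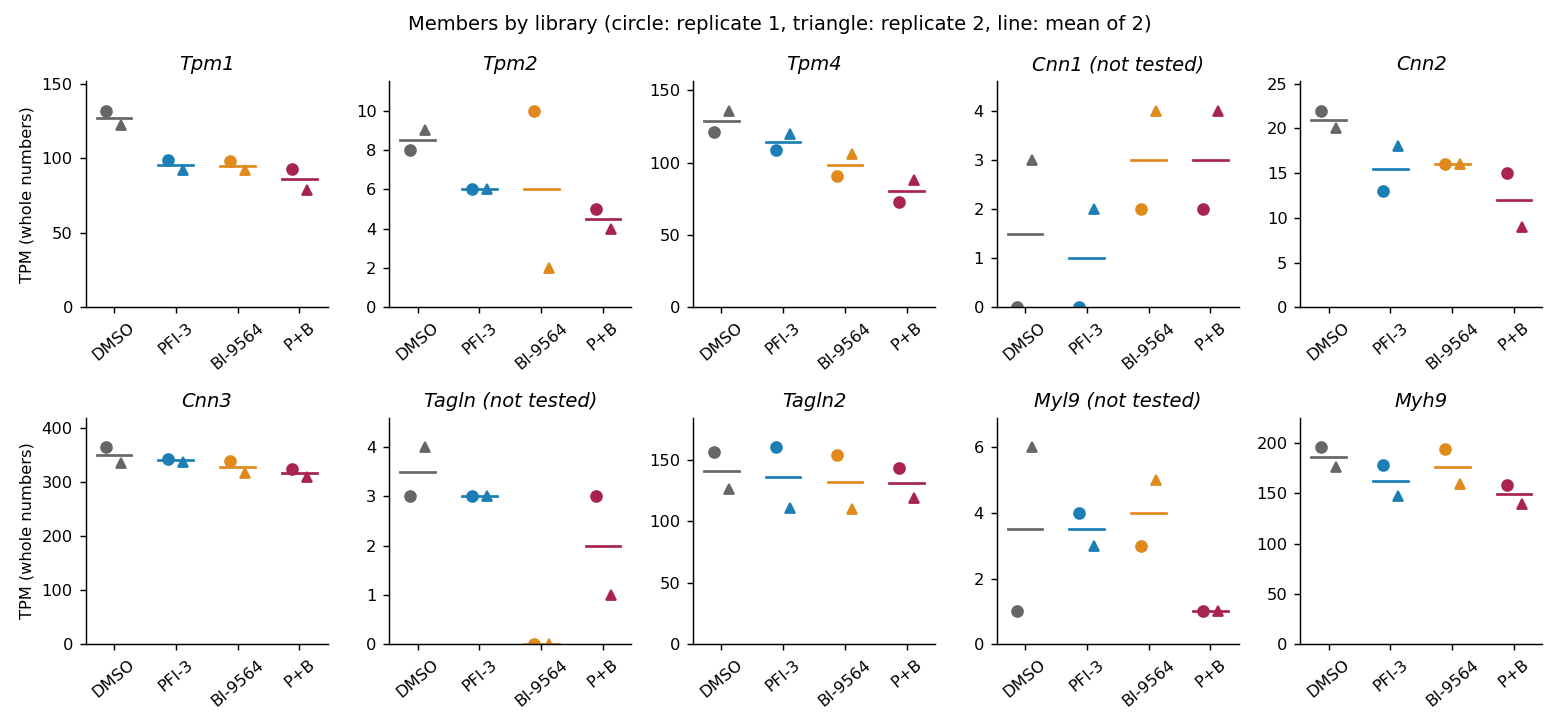
TPM of each member (whole numbers, linear axes from 0) in each library, with a circle for replicate 1, a triangle for replicate 2 and a line at the mean of 2. The P+B points of Tpm1 (93 and 79) and Tpm4 (73 and 88) sit below both DMSO points, the Tagln2 groups overlap, and Cnn1, Tagln and Myl9 stay between 0 and 6 TPM.

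Tpm4 encodes a short, non-muscle tropomyosin of stress fibres and lies at chr8:72134975-72153142 on the + strand (GRCm38). It was 121 and 136 TPM under DMSO, 109 and 120 under PFI-3, 91 and 106 under BI-9564, and 73 and 88 under P+B. The P+B libraries lay below all 6 others, and the BI-9564 libraries lay below those of PFI-3 and DMSO, which came close to each other. The difference in log2(TPM + 1) between P+B and DMSO was -0.67 ± 0.13 (SE, 95% confidence interval -0.97 to -0.37, limma adjusted p = 0.0276), a 1.59-fold lower level. PFI-3 alone gave -0.16 (-0.46 to 0.13, adjusted p = 0.89) and BI-9564 alone -0.38 (-0.68 to -0.08, adjusted p = 0.245). The call for P+B was lost when DMSO replicate 1 (adjusted p = 0.0965), DMSO replicate 2 (0.151), PFI-3 replicate 1 (0.0609), PFI-3 replicate 2 (0.0609), P+B replicate 1 (0.139) or P+B replicate 2 (0.0714) was left out, with log2 differences from -0.81 to -0.54. Tpm4 shares 11.7% of its 50-base words with the copy Gm7809, which was listed at 0 in every library, and genes on the other strand (Gm26586 and Gm16091) overlap it.

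Tpm1 encodes long and short tropomyosins from a single gene, the long ones being typical of muscle and stress fibres, and lies at chr9:67022590-67049406 on the - strand. It was 132 and 122 TPM under DMSO, 99 and 92 under PFI-3, 98 and 92 under BI-9564, and 93 and 79 under P+B. All 6 libraries with a compound lay below both DMSO libraries, and the 3 compound groups overlapped one another. The P+B difference from DMSO was -0.56 ± 0.11 (SE, 95% confidence interval -0.81 to -0.31) with an adjusted p of 0.0298 in limma, but at 1.47-fold it fell short of the fold needed for a call. Without the fold, 2 members (Tpm1 and Tpm4) and 3.35% of tested genes were lower under P+B. PFI-3 alone gave -0.41 (-0.66 to -0.15, limma adjusted p = 0.559) and BI-9564 alone -0.41 (-0.67 to -0.16, limma adjusted p = 0.169). The adjusted p of Tpm1 for P+B ran from 0.0594 to 0.163 as each library in turn was left out, so that it passed 0.05 in none of these 8 fits.

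Tpm2, a tropomyosin best known from muscle (chr4:43514711-43523765, - strand), was near the minimum level. It was 8 and 9 TPM under DMSO, 6 and 6 under PFI-3, 10 and 2 under BI-9564, and 5 and 4 under P+B. The BI-9564 replicates stood at both ends of the range, and the P+B libraries lay below those of DMSO. P+B against DMSO gave -0.79, with an interval from -2.02 to 0.44 and a limma adjusted p of 0.424, which leaves both a large fall and a rise possible.

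The shares of the tropomyosin pool are given as a description. Tpm3, the remaining tropomyosin gene, was no member and was 578 and 543 TPM under DMSO and 544 and 538 TPM under P+B (difference -0.05, limma adjusted p = 0.728). It held 67% to 76.1% of summed tropomyosin TPM, with means of 68% in DMSO, 72.5% in PFI-3, 72.6% in BI-9564 and 76% in P+B. The mean share of Tpm4 was 15.6% under DMSO, 14.6% under PFI-3, 13.6% under BI-9564 and 11.3% under P+B, and that of Tpm1 was 15.4%, 12.2%, 13% and 12.1%. Tpm2 never exceeded 1.34%. The sum of all 4 genes was 824.5 ± 20.5 TPM (SD, n = 2) under DMSO and 712 ± 4.24 TPM under P+B, 86.4% of the DMSO mean.

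**Figure D2:**
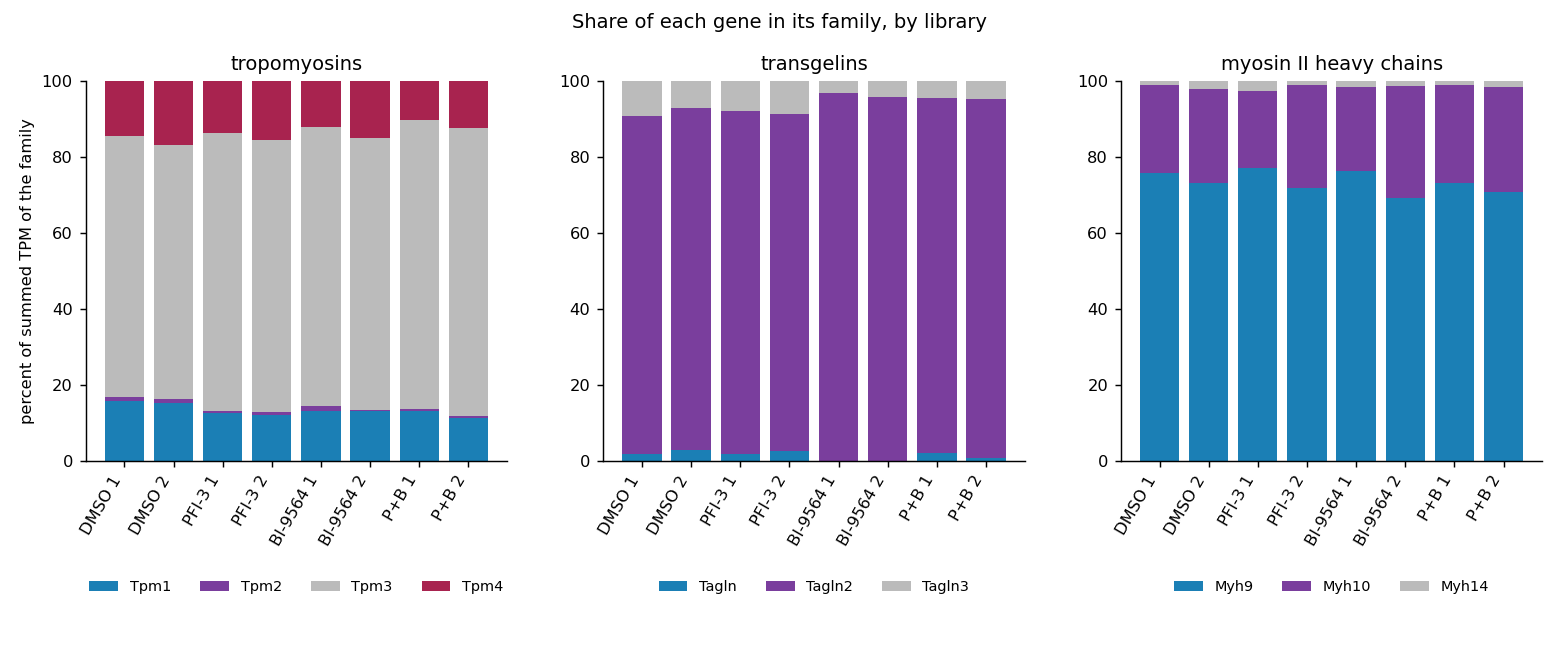
Stacked bars of each gene's percent of the summed TPM of its family, 1 bar per library, for tropomyosins, transgelins and the heavy chains of myosin II. Tpm3 holds 67% to 76.1% of the tropomyosins, and Tpm4 averages 15.6% under DMSO and 11.3% under P+B, while Myh9 stays between 69.1% and 77.1% of the heavy chains.

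Among the calponins, Cnn3, the acidic form found outside muscle (chr3:121426497-121458207, + strand), was the most abundant member of all. It was 365 and 335 TPM under DMSO, 344 and 338 under PFI-3, 340 and 317 under BI-9564, and 325 and 309 under P+B. The P+B libraries lay below both DMSO libraries, but neighbouring groups overlapped. The P+B difference was -0.14 (95% confidence interval -0.32 to 0.04, limma adjusted p = 0.33), an interval that stays short of a 1.5-fold change. Gm42929 on the same strand and Gm42928 on the other strand overlap Cnn3, and their levels are not given here. Cnn3 shares 10.3% of its 50-base words with Gm4815 and Gm17936, and Gm17936 was listed at 0 in every library. Gm4815 was not among the gene names, so its level is not known.

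Cnn2, a calponin of smooth muscle and motile cells whose promoter window held the CArG box printed above (gene at chr10:79988584-79996062, + strand), was much lower. It was 22 and 20 TPM under DMSO, 13 and 18 under PFI-3, 16 and 16 under BI-9564, and 15 and 9 under P+B. All 6 compound libraries lay below both DMSO libraries, as for Tpm1, and the P+B range reached into that of PFI-3. The P+B difference of Cnn2 was -0.80 ± 0.25 (SE, 95% confidence interval -1.38 to -0.21), its adjusted p was 0.113 in limma and it was not called. The P+B replicates stood apart, since the difference was -1.14 without P+B replicate 1 and -0.46 without P+B replicate 2. PFI-3 alone gave -0.43 (limma adjusted p = 0.853) and BI-9564 alone -0.37 (limma adjusted p = 0.536).

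Cnn1, the calponin of differentiated smooth muscle (chr9:22099216-22109630, + strand), was 0 and 3 TPM under DMSO, 0 and 2 under PFI-3, 2 and 4 under BI-9564, and 2 and 4 under P+B. At this level 1 unit is a large part of a whole-number value, and the groups overlapped. Cnn3 made up 93.6% to 96.4% of summed calponin TPM and Cnn2 2.8% to 5.68%. The calponin sum was 372.5 ± 20.5 TPM (SD, n = 2) under DMSO and 332 ± 14.1 TPM under P+B.

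Tagln2, the transgelin of cells outside muscle (chr1:172500047-172507380, + strand), differed more between replicates than between treatments. It was 156 and 126 TPM under DMSO, 160 and 111 under PFI-3, 154 and 110 under BI-9564, and 143 and 119 under P+B. Replicate 2 was below replicate 1 in 4 of 4 groups and all groups overlapped. The P+B difference was -0.10 (95% confidence interval -0.60 to 0.39, limma adjusted p = 0.815). This fit has no block, so the replicate shift is left in its spread, and its interval allows a change of 1.5-fold in the lower direction. With the replicate number as a block the limma adjusted p was 0.472.

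Tagln, the transgelin of smooth muscle also called SM22 (chr9:45929619-45936058, - strand, overlapping Pcsk7), was 3 and 4 TPM under DMSO and 3 and 3 under PFI-3. It was listed at 0 in both BI-9564 libraries, so no fold is given, and was 3 and 1 TPM under P+B. Tagln3, a neuronal transgelin that is no member, was 16 and 10 TPM under DMSO, 14 and 11 under PFI-3, 5 and 5 under BI-9564, and 7 and 6 under P+B. Its P+B difference was -0.87 (limma adjusted p = 0.114). Its BI-9564 difference was -1.19 (adjusted p = 0.131 in limma, and 0.0476 with the replicate number as a block, where it was called, as were 156 of 10222 tested genes). Tagln2 held 88.8% to 96.9% of the transgelin sum, Tagln at most 2.86% and Tagln3 3.14% to 9.14%.

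Myh9, the heavy chain of non-muscle myosin IIA (chr15:77760587-77842175, - strand, overlapping Gm22107 on the same strand), was the main heavy chain in these cells. It was 196 and 176 TPM under DMSO, 178 and 147 under PFI-3, 194 and 159 under BI-9564, and 158 and 140 under P+B. Both P+B libraries lay below both DMSO libraries, while each compound alone overlapped DMSO. The P+B difference was -0.32 ± 0.13 (SE, 95% confidence interval -0.63 to -0.01, limma adjusted p = 0.212), a 1.25-fold lower level that was not called. PFI-3 alone gave -0.20 (limma adjusted p = 0.856) and BI-9564 alone -0.08 (limma adjusted p = 0.824). Myh10, the heavy chain of myosin IIB, was 60 and 60 TPM under DMSO and 56 and 55 TPM under P+B (limma adjusted p = 0.674). Myh9 held 69.1% to 77.1% of the heavy chain sum, which was 250 ± 12.7 TPM (SD, n = 2) under DMSO and 207 ± 12.7 TPM under P+B.

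Myl9, the regulatory light chain typical of smooth muscle and the other member with a CArG box in its window (gene at chr2:156775420-156781658, + strand), was 1 and 6 TPM under DMSO and 4 and 3 under PFI-3. It was 3 and 5 TPM under BI-9564 and 1 and 1 under P+B, so the DMSO replicates spanned the whole range. The regulatory light chains of these cells came from Myl12a and Myl12b, which held 46.2% to 55.8% and 43.5% to 53.6% of their sum, against at most 1.11% for Myl9. That sum was 550.5 ± 13.4 TPM (SD, n = 2) under DMSO and 500.5 ± 24.7 TPM under P+B. When the minimum mean was set at 1 TPM, Cnn1, Tagln and Myl9 entered the test with 13101 genes, and none of the 3 was called in any of 7 comparisons (smallest limma adjusted p = 0.158). An unadjusted limma p under 0.05 was reached by 4 of these 21 values, against 11.4% over all genes, and all 4 were Tagln values that rest on the BI-9564 libraries listed at 0.

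**Figure D3:**
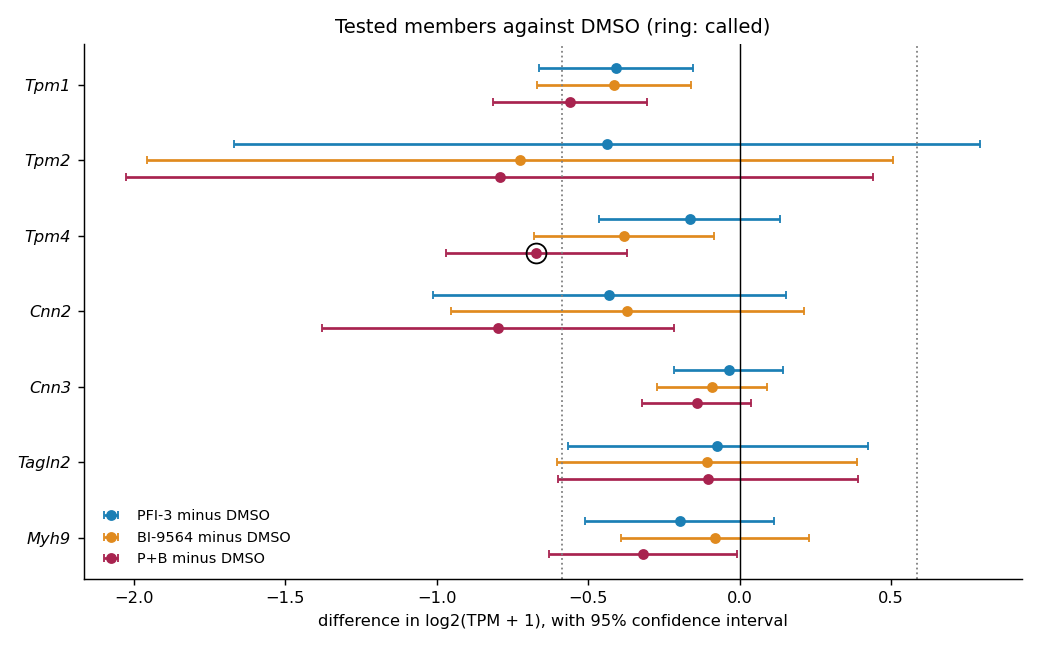
Difference in log2(TPM + 1) from DMSO for the 7 tested members, with 95% confidence intervals from limma. Dotted lines stand at a 1.5-fold change and a ring marks the call. All points lie left of 0, only Tpm4 under P+B is ringed, and the intervals of Tpm2 span both dotted lines for PFI-3 only.

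Against DMSO the tested members had a median difference of -0.56 under P+B, where the median of all tested genes was 0.06, and 7 of 7 lay below 0 (41.7% of all). With PFI-3 alone the median was -0.20 against 0.02 for all genes, 7 of 7 lay below 0 (45.2% of all), and both libraries were below both DMSO libraries in 4 of 7 (12.8% of all). With BI-9564 alone it was -0.37 against 0.02, with 7 of 7 below 0 (45.9% of all) and 3 of 7 not overlapping below DMSO (18.3% of all). Without BI-9564 replicate 2 that median was -0.04, and Tpm2, Tagln2 and Myh9 lay above 0 (0.21, 0.13 and 0.063). Without PFI-3 replicate 1 the median for PFI-3 was -0.33. These comparisons use the same DMSO libraries, so their directions are not independent of one another. The call itself reached 0 members and 0% of tested genes under PFI-3 in limma, with an unadjusted p under 0.05 in 1 of 7 members and 6.79% of genes. With BI-9564 it reached 0 members and 0.108% of genes, with an unadjusted p under 0.05 in 2 of 7 members and 14.9% of genes.

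The replicate numbers were taken to pair the libraries, so a second fit held the replicate number as a block. In that fit Tpm4 was called under P+B (adjusted p = 0.00223), as was 7.02% of tested genes. Tpm1 had an adjusted p of 0.00512 and Myh9 of 0.026, both under 1.5-fold and so not called, making 3 members lower without the fold against 6.73% of genes. With BI-9564 alone the block gave limma adjusted p-values of 0.0415 for Tpm1 and 0.0464 for Tpm4, again under 1.5-fold, against 2.01% of genes.

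The compounds were also compared with each other, over 7 tested members in 3 pairs of groups, with p-values adjusted over all tested genes in limma. BI-9564 and PFI-3 differed for no member by the call, which 0.108% of tested genes met, 5 of 7 differences lay below 0 (48.7% of all), and 0 of 7 members against 14.2% of genes had an unadjusted p under 0.05. Tpm1 was almost level between them, under BI-9564 minus PFI-3 at -0.01 (95% confidence interval -0.26 to 0.25), which leaves no room for a 1.5-fold difference. For Tpm4 the difference was -0.22 (-0.52 to 0.08), an interval that also stays within 1.5-fold.

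P+B against PFI-3 gave differences from -0.51 to -0.03, all 7 below 0 (45.1% of all genes), and no member was called against 1.31% of genes. The -0.51 was Tpm4 (95% confidence interval -0.81 to -0.21, limma adjusted p = 0.106), the 1 member with an unadjusted p under 0.05, which 16.6% of genes had. With the replicate block its adjusted p was 0.0128, still under 1.5-fold, against 3.96% of genes lower without the fold. Tpm1 differed by -0.15 (-0.41 to 0.10) and Cnn2 by -0.37 (limma adjusted p = 0.514).

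P+B against BI-9564 gave differences from -0.43 to 0.00, with 6 of 7 below 0 (44.3% of all genes) and no member called against 0.196% of genes. An unadjusted limma p under 0.05 was reached by 0 members and by 7.97% of genes. Tpm4 differed by -0.29 (95% confidence interval -0.59 to 0.01, limma adjusted p = 0.636) and Cnn2 by -0.43 (-1.01 to 0.16, limma adjusted p = 0.773). An interaction term, the log2 difference of P+B less those of PFI-3 and BI-9564 each alone, was tested too. Whether each compound had the same dose alone and in P+B is not known for these libraries. That limits the reading of the interaction term and of P+B against each compound. The term called 0 members and 0% of genes in limma, with an unadjusted p under 0.05 in 0 members and 3.26% of genes. It was below 0 for 3 of 7 members and 50.5% of genes. For Tpm4 the term was -0.13 (-0.55 to 0.30) and for Tpm1 0.26 (-0.10 to 0.62), so terms of up to these bounds could not be resolved with 2 libraries per group.

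The genes that act with the members were described from lists. Of 10 relatives in the same families 7 were tested, none was called under P+B, and their median difference was -0.14. Over all tested genes 2.72% were called lower and 1.28% higher. The most abundant of them were Myl6, an essential light chain of non-muscle myosin, at -0.14 (limma adjusted p = 0.346), and Tpm3, given above. Myl6b, a second essential light chain, was 20 and 15 TPM under DMSO and 10 and 7 TPM under P+B (adjusted p = 0.127 in limma, and 0.0153 with the replicate block, where it was called, as was 7.02% of tested genes). Of 6 actin genes, 4 were listed at 0 in every library. The cytoplasmic actins Actb and Actg1 differed by -0.17 (limma adjusted p = 0.138) and -0.25 (limma adjusted p = 0.394). With the replicate block their limma adjusted p-values were 0.0512 and 0.0112, both under 1.5-fold and so not called. In that fit 6.73% of tested genes were lower without the fold.

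Of 14 thin filament and actin regulators 12 were tested, 2 fell under P+B (2.72% of all tested genes) and the median difference was -0.05. Smtn, which encodes the actin-binding protein smoothelin, was 128 and 157 TPM under DMSO, 82 and 91 under PFI-3, 107 and 102 under BI-9564, and 71 and 63 under P+B. Both P+B libraries were the lowest of the 8, and the difference from DMSO was -1.07 ± 0.13 (SE, limma adjusted p = 0.0036). Vasp, a promoter of filament elongation, was 177 and 172 TPM under DMSO and 125 and 95 under P+B (-0.67, limma adjusted p = 0.0299). The most abundant genes of the list were the actin monomer binders Pfn1, at -0.28 (limma adjusted p = 0.126), and Cfl1, which severs filaments, at 0.04 with no scaling and -0.06 after median centring. With the replicate block the limma adjusted p of Pfn1 was 0.00495, under 1.5-fold and not called, and that of Cfl1 was 0.582.

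Of 15 tested other SRF targets 3 fell (2.72% of all tested genes), 1 rose (1.28% of all) and the median difference was -0.38. With the replicate number as a block 5 were called lower, as were 419 of 10222 tested genes. The block added Csrp1 (-0.63, adjusted p = 0.153 in limma and 0.00226 with the block) and Cyr61 (-0.91, adjusted p = 0.0946 in limma and 0.00303 with the block), both named after their values were seen. Actn1, the cross-linker alpha-actinin, was 236 and 244 TPM under DMSO and 143 and 154 TPM under P+B (-0.69, limma adjusted p = 0.0103). Wdr1, which helps cofilin take filaments apart, was 119 and 127 TPM under DMSO and 76 and 73 under P+B (-0.71, limma adjusted p = 0.0067). In both genes the P+B libraries lay below all 6 others. Fhl2, a LIM-domain cofactor, was 12 and 8 TPM under DMSO and 1 and 3 under P+B (-1.94, limma adjusted p = 0.0442). It was 6 and 4 TPM under PFI-3 and 5 and 4 under BI-9564. Its mean of 5.375 TPM passed the minimum through the high DMSO libraries, so this call is not independent of the filter. At 1 and 3 TPM, 1 unit is a large part of a whole-number value. Mybl1, a MYB family transcription factor, rose from 8 and 6 TPM to 17 and 25 TPM (1.45, limma adjusted p = 0.0179). Flna, the filament cross-linker filamin A, was the other abundant gene of the list and differed by -0.50 without a call (adjusted p = 0.0546 in limma, and 0.0155 with the block, under 1.5-fold).

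These calls depended on single libraries and settings to different degrees. With only the 4 libraries compared, all 6 genes just called (Smtn, Vasp, Actn1, Wdr1, Fhl2 and Mybl1) lost the call (limma adjusted p from 0.1 to 0.177). With no filter Vasp (0.0848), Fhl2 (0.0882) and Mybl1 (0.0571) lost it, with no trend Vasp (0.072), and at a minimum of 1 TPM Fhl2 (0.0547). Among the libraries left out in turn, Smtn was lost only without P+B replicate 2 (limma adjusted p = 0.0514). Actn1 was lost without DMSO replicate 1 (0.0803), DMSO replicate 2 (0.0873), P+B replicate 1 (0.0859) or P+B replicate 2 (0.0652). Wdr1 was lost without DMSO replicate 1 (0.0562), DMSO replicate 2 (0.0669) or P+B replicate 2 (0.0619), and Mybl1 without the same libraries (0.0689, 0.106 and 0.131). Vasp was lost without any library but P+B replicate 1 (0.0618 to 0.142) and Fhl2 without any one of the 8 (0.0619 to 0.198).

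**Figure D4:**
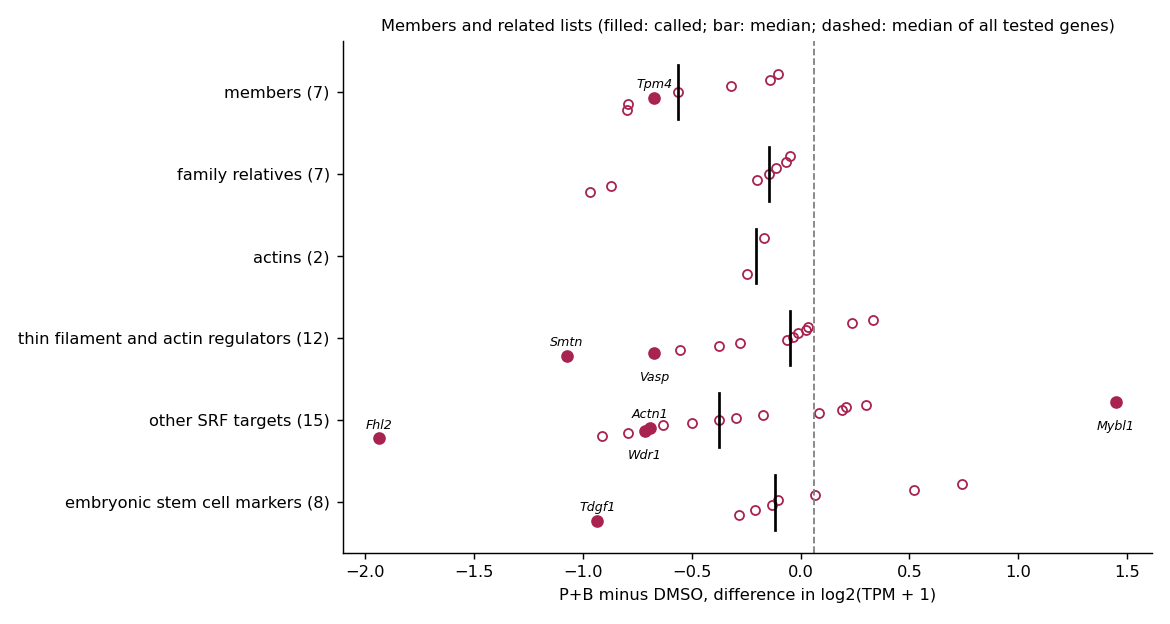
Difference in log2(TPM + 1) between P+B and DMSO for every tested gene of the members and of 5 lists, with the number tested in brackets. Filled points were called, bars are list medians and the dashed line is the median of all tested genes, 0.06. Tpm4 is the only filled member, and the called genes of the other lists run from Fhl2 at -1.94, a gene near the minimum level, to Mybl1 at 1.45.

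Replicates differed in the same way in several members, a comparison chosen after the values were seen. In the block fit Tagln2 was lower in replicate 2 by -0.39 on the log2 scale (limma adjusted p = 0.0179), and 1 of 7 members against 3.77% of tested genes passed without a fold. Myh9 (-0.22), Tpm1 (-0.13) and Cnn3 (-0.08) were also lower in replicate 2 in 4 of 4 groups, making 4 of 7 members against 12.8% of genes. Tpm4 alone was higher in replicate 2 in 4 of 4 groups (0.20, limma adjusted p = 0.093), against 11.1% of genes. The labels do not say what the replicate number stands for, and the part it plays in the differences between treatments was not tested beyond the block fit.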

How the data were processed

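RNA-seq was made by the authors from poly(A)-selected RNA with a VAHTS kit. The submitters' processing notes name bcl2fastq, Bowtie2 2.2.5, RSEM 1.3.0 and the mm10 build. The authors deposited 1 table whose values, recorded here as a score, are TPM that were made whole numbers. All values were whole, 94 rows had repeated names and 33075 were at 0 in all libraries. Whether the values were rounded or cut down to whole numbers is not stated, so a gene listed at 0 need not be absent. Library sums were 991574 to 991897, and 10285 to 10451 genes reached 5 TPM. The depth behind a TPM is not known, nor is the counting error, and count tools were not used.

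The fits used limma 3.58.1 under R 4.3.3 (lmFit, then eBayes, trend on) and log2(value + 1), on genes with a mean of at least 5, fitting 4 groups of 2 libraries together (4 residual degrees of freedom). Differences on this scale understate changes of low genes. P-values were adjusted by Benjamini-Hochberg over all 10222 genes. A call needed an adjusted p under 0.05 and 1.5-fold. An exact permutation test of 2 against 2 cannot go below p = 0.333 and was not used. Replicate numbers were taken to pair libraries because deviations from group means correlated in all 6 pairs of groups (r 0.143 to 0.236).

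Members and lists were chosen with earlier results of these data known. All members were named, with up to 4 called and the 2 most abundant tested genes of each other list, and of marker lists up to 3 of the highest level. Outside that rule, Tdgf1, Esrrb, Csrp1 and Cyr61 were named after their values were seen. Jun and further genes of the same families (Tagln3, Myh10, Myl6b, Myl12a and Myl12b) were named outside it too. Gene positions and shared 50-base words came from the GENCODE annotation and transcripts of GRCm38, and promoter windows from RefSeq (GRCm38.p6). One further list is not reported here. The script was tested on simulated data. The settings varied were the block by replicate number, the pseudocount (0.5 and 5), a minimum of 1 or none, median centring, quantile normalization, no trend, the 4 libraries compared alone, and each library left out.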

Additional observations from a re-analysis of the deposited data

How the results depend on the processing

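Whole-number values limit precision at low levels, depth is unknown, and 2 libraries per group leave wide intervals. With P+B against DMSO, 1 member was called, and 0 were with no filter, with no trend or with only the 4 libraries compared (Tpm4 then had adjusted p-values of 0.0758, 0.0654 and 0.155 in limma). Median centring called 2 (Tpm4 and Tpm1), and leaving out 1 library gave 0 to 1. Over all genes, 409 calls became 718 with the replicate block, 201 with no filter and 0 with only the 4 libraries compared, and 68 to 268 when 1 library was left out. The block moved the other counts to 156 for BI-9564 against DMSO (from 11), 351 for P+B against PFI-3 (from 134), 82 for P+B against BI-9564 (from 20) and 151 for BI-9564 against PFI-3 (from 11), and changed no call of a member. For BI-9564 against DMSO a pseudocount of 5 gave 17 and median centring 21. A minimum of 1 gave 77 for P+B against PFI-3, 2 for P+B against BI-9564 and 0 for the other pairs with BI-9564. No filter gave 6 for P+B against PFI-3 and 0 for the other 3, no trend 4 for P+B against PFI-3, 2 for P+B against BI-9564 and 0 for the rest, and the 4 libraries compared alone gave 0 throughout. Leaving out 1 library gave 0 to 51 for P+B against PFI-3, 0 to 7 for P+B against BI-9564 and 0 to 1 for each of the other comparisons. The causes were not tested.

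Of 826 member values under alternatives 769 kept direction and side of the threshold, 9 (Tpm4) lost the call, 1 (Tpm1) gained it and 47 changed sign, all among values that were not called. Without a library left out these were the departure from additivity of Cnn2 (-0.001 with a pseudocount of 0.5, -0.022 after quantile normalization) and of Cnn3 (0.01, quantile), Tagln2 for P+B against PFI-3 (0.016, quantile), for BI-9564 against PFI-3 (0.004, quantile) and for P+B against BI-9564 (-0.043, median centring), and Tpm1 for BI-9564 against PFI-3 (0.038, quantile). Outside the members, Tpm3 reached 0.013 (quantile) and Cfl1 -0.058 (median centring) with P+B.

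With 1 library left out, Tagln2 ran from -0.26 to 0.05 with P+B, -0.33 to 0.19 with PFI-3 and -0.35 to 0.13 with BI-9564 against DMSO, from -0.29 to 0.23 for P+B against PFI-3, -0.24 to 0.24 for P+B against BI-9564, -0.30 to 0.23 for BI-9564 against PFI-3 and -0.19 to 0.34 for the departure from additivity. Tpm2 ran from -1.66 to 0.21 for BI-9564 against DMSO, -1.01 to 0.87 for P+B against BI-9564, -1.22 to 0.65 for BI-9564 against PFI-3 and -0.57 to 1.31 for the departure. Myh9 ran from -0.22 to 0.063 for BI-9564 against DMSO, -0.26 to 0.017 for P+B against PFI-3, -0.025 to 0.26 for BI-9564 against PFI-3 and -0.18 to 0.10 for the departure. Cnn3 ran from -0.098 to 0.025 for PFI-3 against DMSO and -0.076 to 0.047 for the departure, Cnn2 from -0.16 to 0.28 for BI-9564 against PFI-3 and -0.34 to 0.34 for the departure, Tpm1 from -0.06 to 0.045 for BI-9564 against PFI-3, and Tpm4 from -0.26 to 0.007 for the departure.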
